A study of Mus musculus with 13 samples.

Results

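The genes described here are 46 ribosome biogenesis factors, proteins that transcribe, modify, cut, fold or carry ribosomal RNA (rRNA) while ribosomal subunits are built. They were chosen by name from the normalized expression table of mouse tibialis anterior muscle, in which all 46 of the 46 named genes were listed among 13846 genes. The tibialis anterior is a muscle of the shin. Muscles of 3 genotypes were sequenced in a comparison that asked which molecular pathways sarcospan overexpression acts on in mdx muscle: mdxTG mice (n = 4 libraries), mdx mice (n = 4) and wild-type (WT) mice (n = 5). The mdx mouse is a model of Duchenne muscular dystrophy and carries a premature stop in Dmd, the gene of dystrophin. The mdxTG mice carry the same mutation plus a sarcospan (Sspn) transgene, sarcospan being a membrane protein of the complex that anchors dystrophin. All mdxTG and mdx libraries therefore share the mdx allele, and WT libraries have neither the mutation nor the transgene. The sources used here give neither the age and sex of the mice nor the promoter or cell type in which the transgene is active. Nothing says that the libraries are 1 per mouse, and p-values measure no more than how far these samples differ, a difference that may be technical.

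Ribosomes are assembled in the nucleolus. RNA polymerase I transcribes the long precursor of rRNA, small nucleolar ribonucleoproteins (snoRNPs) of the box C/D and box H/ACA types guide its methylation and pseudouridylation, and separate sets of helicases, GTPases and scaffold proteins then process it into the small and the large subunit. In skeletal muscle, output of new ribosomes is known to be raised during growth and regeneration, and the transcription factor Myc is a well-known activator of many of these genes. The 46 genes are taken below in that order of roles: 4 genes of RNA polymerase I transcription, 3 of the box C/D core, 4 of the box H/ACA core, 5 nucleolar chaperones and scaffolds, 15 factors of small subunit assembly and 15 of large subunit assembly.

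Promoter sequences are shown first, because Myc is known to act on many of these genes through sites near their start. The promoter was taken as 250 bases before to 50 bases after the start site in RefSeq (GRCm38.p6), and 41 of the 46 members were found there; Bop1, Fbl, Npm1, Rrp12 and Rrs1 were not. The E-box CACGTG, the letters that Myc and Max bind, was present in 7 of the 41 promoters, 17.1%, against 11.8% of the 10419 promoters of genes listed in the table. Its sites in the 7 members are printed with the motif in capitals, 5′ to 3′ on the gene's strand.
Imp4, chr1:34439696-34439725, plus strand, motif 121 bases before the start site: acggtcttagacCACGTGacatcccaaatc
Nop2, chr6:125131811-125131840, plus strand, 60 bases before: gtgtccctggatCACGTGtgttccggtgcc
Ltv1, chr10:13193092-13193121, minus strand, 29 bases after: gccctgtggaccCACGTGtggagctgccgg
Utp20, chr10:88826765-88826794, minus strand, 38 bases after: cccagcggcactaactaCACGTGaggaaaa
Pes1, chr11:3963965-3963994, plus strand, 3 bases after: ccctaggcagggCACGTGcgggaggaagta
Tsr1, chr11:74898092-74898121, plus strand, 25 bases after: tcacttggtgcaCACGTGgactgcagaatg
Wdr43, chr17:71616220-71616249, plus strand, 18 bases after: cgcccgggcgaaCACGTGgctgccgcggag

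The 7 sites lay within 121 bases of the start site, and 5 of them lay after it. CACGTG reads the same on both strands. A second motif, CCGGAAG, the core letters of sites for Ets-family transcription factors, was searched on both strands and was present in 15 of the 41 promoters, 36.6%, against 19.0% of the promoters of listed genes. The TATA-box letters TATAAA, searched likewise, were present in 2 of the 41, 4.88%, against 9.29% of listed genes. No site of one motif overlapped a site of another. A match describes the letters in the window and says nothing of binding. The CCGGAAG sites nearest to the start site in 3 members whose level was higher in a comparison below are printed the same way, with the motif (or CTTCCGG, its reverse complement) in capitals.
Polr1c, chr17:46248069-46248098, minus strand, 42 bases before: ccacttgacgtCCGGAAGtgaaggacgtgg
Nhp2, chr11:51619739-51619768, plus strand, 23 bases before: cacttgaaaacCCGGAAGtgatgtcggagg
Nip7, chr8:107056874-107056903, plus strand, 9 bases after: agtgacttccgCTTCCGGctctccaggcac

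Each library held 41.74 to 53.87 M reads in listed genes. Sspn was at 1580 to 2010 normalized CPM (reads scaled to an effective library size) in mdxTG libraries, 109 to 119 in mdx libraries and 101 to 136 in WT libraries, as the labels have it. Dmd, whose transcript is known to be reduced by the mdx mutation, was at 53.9 to 62.3 in mdxTG, 48.7 to 58.3 in mdx and 124 to 255 in WT. The summed level of 10 genes of the muscle fibre (among them Acta1, Myh4 and Mb) was 93000 to 114000 normalized CPM in mdxTG libraries, 127000 to 155000 in mdx and 156000 to 215000 in WT, and none of the 10 was at 0. WT replicate 2 stood apart: its uniquely mapped share was 80.94%, against 84.38% to 85.83% in the other WT libraries, its mitochondrial share of gene reads was 19.15%, the highest of the 13, and its Dmd level was 124 against 244 to 255 in the other WT libraries.

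All 46 members were expressed in every library. The fewest reads of any member in any library were 157, and the means over all libraries ran between 4.99 and 182 normalized CPM. Per kilobase of coding sequence, the highest levels were those of Nop10, at 126 ± 14.4 normalized CPM per kilobase in mdxTG, 130 ± 24.7 in mdx and 163 ± 34.8 in WT (SD, n = 4, 4 and 5), followed by Npm1 and Ncl. The lowest were Heatr1, at 2.99 ± 0.213, 2.66 ± 0.208 and 2.57 ± 0.349 in mdxTG, mdx and WT, and Utp20, at 2.55 ± 0.181, 2.71 ± 0.231 and 2.80 ± 0.343. The members were tight between libraries of 1 genotype. The median coefficient of variation over the 46 genes was 6.76% in mdxTG, 8.87% in mdx and 9.63% in WT. Over all genes tested it was 9.74%, 11.3% and 15.0% in the same 3 groups. The genes tested reach down to lower levels than any member, and the comparison was not matched for level.

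**Figure D1:**
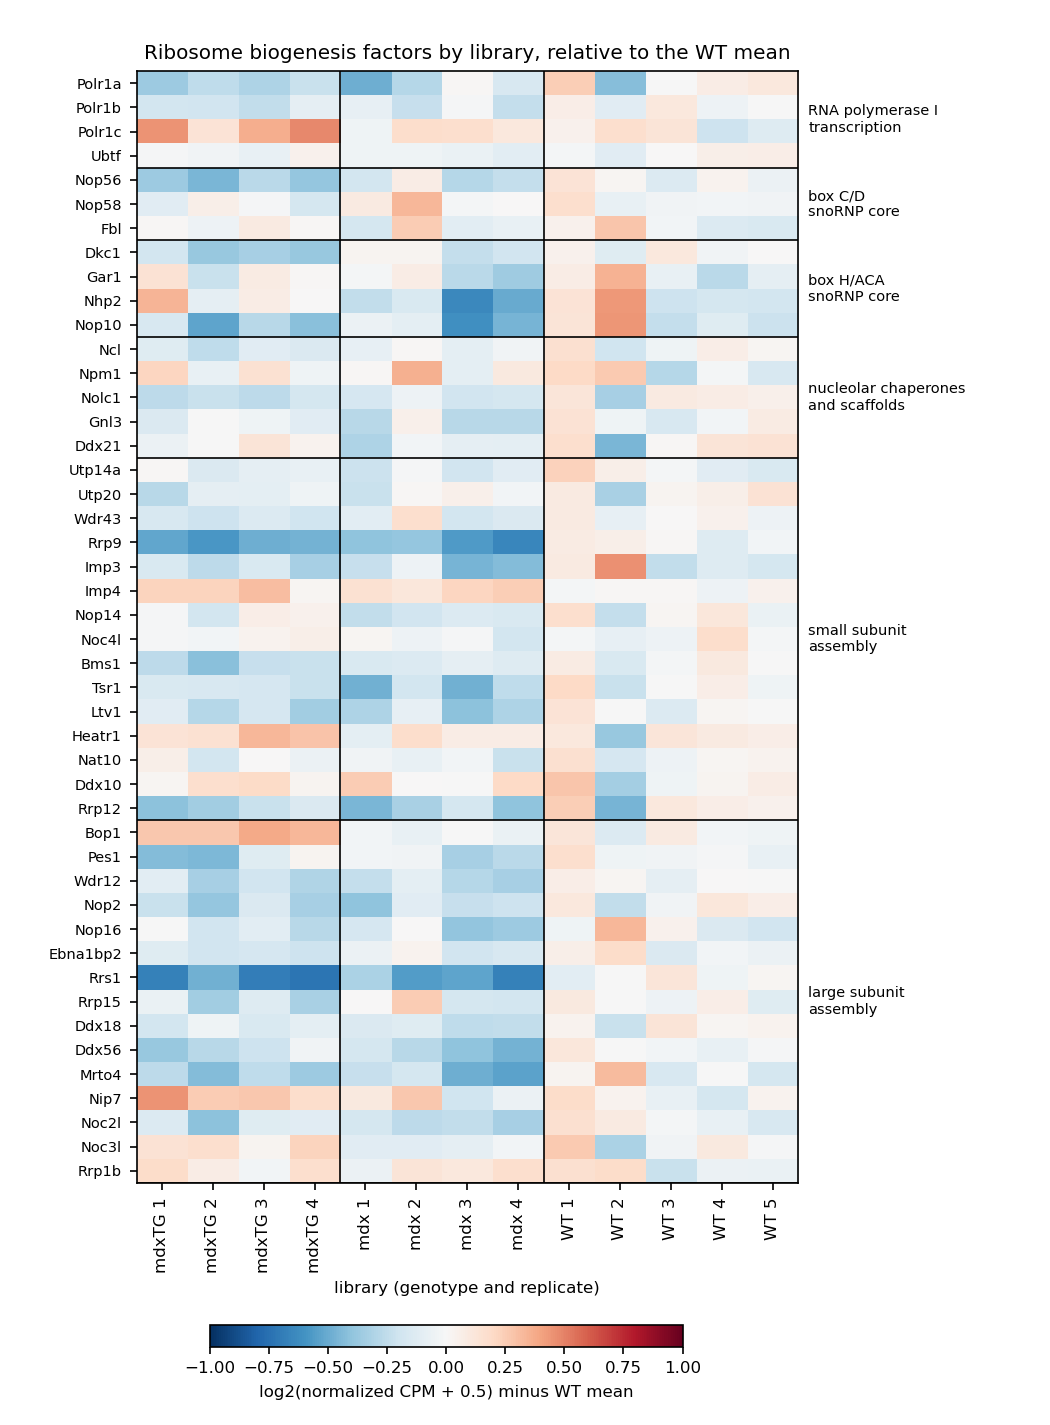
Level of each of the 46 members (rows, by role) in each library (columns, mdxTG, mdx and WT), as log2(normalized CPM + 0.5) minus the mean of the 5 WT libraries; red is higher and blue lower than that mean. Rrs1 and Rrp9 are below the WT mean in all mdxTG and mdx libraries, Bop1 is above it in all 4 mdxTG libraries, and WT replicate 2 departs from the other WT libraries in both directions.

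In mdxTG muscle against mdx muscle, the ribosome biogenesis factors were close to even. Bop1 and Nhp2 were higher, no member was lower and 44 of 46 did not pass the test (limma on log2(normalized CPM + 0.5), fitted over 13831 genes with Benjamini-Hochberg adjustment and a threshold of 0.05). That is 4.35% of the members higher and 0.0% lower, against 15.4% higher and 12.9% lower among all genes tested, so the members' share was below the background in both directions. On plain CPM, without the authors' scaling, 9 members were higher and none lower, against 25.3% and 7.09% of all genes. The median log2 fold of the members was 0.03 and that of all genes 0.00. No member changed by more than 0.5 on the log2 scale, while 17.7% of all genes did. For the count of 0 lower members, 2 members had an unadjusted p under 0.05 in limma, edgeR called 0 (13% of all genes), DESeq2 called 2, Dkc1 and Nop56 (16.4% of all genes), and limma on median-of-ratios scaling called Dkc1 (14.1% of all genes). The count of higher members was 1 without mdxTG replicate 1, 3 or 4 or without mdx replicate 3 or 4, and the count of lower members was 1 without mdxTG replicate 1, mdx replicate 3 or WT replicate 2.

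In mdx muscle against WT muscle, 9 members were lower and none was higher on the normalized scale, which is 19.6% and 0.0% of the members, against 16.1% lower and 18.5% higher over all genes. In limma with all libraries and no block, the share of lower members was near the background and the share of higher members was below it. Without WT replicate 2 the lower share of the members was above that of all genes. Without mdx replicate 3 or 4 it fell to 10.9% or 8.7%, and the share of all genes was not counted there. On plain CPM, 7 members were higher and 2 (Rrs1 and Rrp9) lower, against 37.2% and 5.32% of all genes. The 9 were Rrs1, Rrp9, Mrto4, Tsr1, Rrp12, Ddx56, Ltv1, Noc2l and Wdr12, with log2 folds between -0.52 and -0.24. The members' median log2 fold was -0.14 on the normalized scale and 0.09 on plain CPM, against -0.01 and 0.20 for all genes on the same scales, so that the sign of the members' median depends on the scaling while its distance below the all-gene median was 0.13 and 0.11. For the count of 0 higher members, 1 member, Imp4, had an unadjusted p under 0.05 in limma, edgeR called 0 (18.4% of all genes) and DESeq2 called Imp4 alone (19.6% of all genes), and 1 member was higher without mdxTG replicate 4. The count of lower members was 10 in edgeR, which added Nop2, and 12 in DESeq2, which added Ddx18, Nhp2 and Nop2. These are 21.7% and 26.1% of the members, and the lower share of all genes was not counted for these 2 tools. In limma the count was 16 without WT replicate 2 (34.8% of the members, against 18.6% of all genes), 5 without mdx replicate 3 and 4 without mdx replicate 4. The labels do not pair mdx with WT libraries, and a pairing by replicate number was taken from these same data. What that pairing stands for is not known, and it may be technical. With the replicate numbers as a block, 12 members were lower (26.1% of the members, against 18.8% of all genes). Rrp12 lost its call there (adjusted p = 0.0683), while Nhp2, Nop10, Imp3 and Nop16 were lower (adjusted p = 0.00497, 0.00803, 0.00993 and 0.0339). Since the pairing was picked from these data, the blocked counts and p-values are a description and no separate support. WT replicate 5 has no mdx library of its number and adds nothing to the blocked comparison.

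In mdxTG muscle against WT muscle, 4 members were higher (Polr1c, Bop1, Nip7 and Imp4) and 11 were lower (Rrs1, Rrp9, Nop56, Mrto4, Dkc1, Bms1, Nop2, Nolc1, Wdr12, Ltv1 and Ddx56) on the normalized scale. That is 8.7% and 23.9% of the members, against 28.7% higher and 25.3% lower over all genes, so in limma the lower share was near the background and the higher share below it. The lower count was 14 in edgeR (30.4% of the members, against 25.8% of all genes), 19 in DESeq2 (41.3% against 28.3%) and 18 in limma on median-of-ratios scaling (39.1% against 26.8%), where the members' share was above that of all genes. The median log2 fold of the members was -0.15 on the normalized scale and 0.22 on plain CPM, against 0.02 and 0.36 for all genes. On plain CPM the split of calls was 25 higher and 1 lower, the lower one being Rrs1, against 57.2% of all genes higher and 8.54% lower. The lower count was 19 without WT replicate 2 (41.3% of the members, against 26.9% of all genes). It was 5 without mdxTG replicate 2 (10.9% of the members), where the share of all genes was not counted. The higher count was 2 without mdxTG replicate 1, 2 or 3 or WT replicate 4.

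The choice of scale carries these directions. The deposited scale divides each library by an effective size, and its factors were 1.107 to 1.191 in mdxTG, 1.006 to 1.068 in mdx and 0.831 to 0.932 in WT. Taking plain CPM instead moved the median of all genes to 0.13 in mdxTG against mdx, 0.20 in mdx against WT and 0.36 in mdxTG against WT. Summed over the 46 members, the normalized level was 1230 ± 40.5 in mdxTG, 1230 ± 59.7 in mdx and 1350 ± 75.2 in WT (SD, n = 4, 4 and 5). Every mdxTG library, at 1170 to 1270, lay below every WT library, at 1280 to 1480. As a plain share of gene reads the order was the reverse, with 0.139% to 0.142% in mdxTG, 0.120% to 0.137% in mdx and 0.110% to 0.124% in WT, and mdxTG libraries lay above all others. The levels below are on the normalized scale. Of the 26 calls of single members, 9 change sign on plain CPM, all of them lower in mdxTG against WT: Nop56, Dkc1, Nolc1, Bms1, Ltv1, Wdr12, Nop2, Ddx56 and Mrto4. In bulk muscle, fewer cells of a type and less RNA per cell cannot be told apart.

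**Figure D2:**
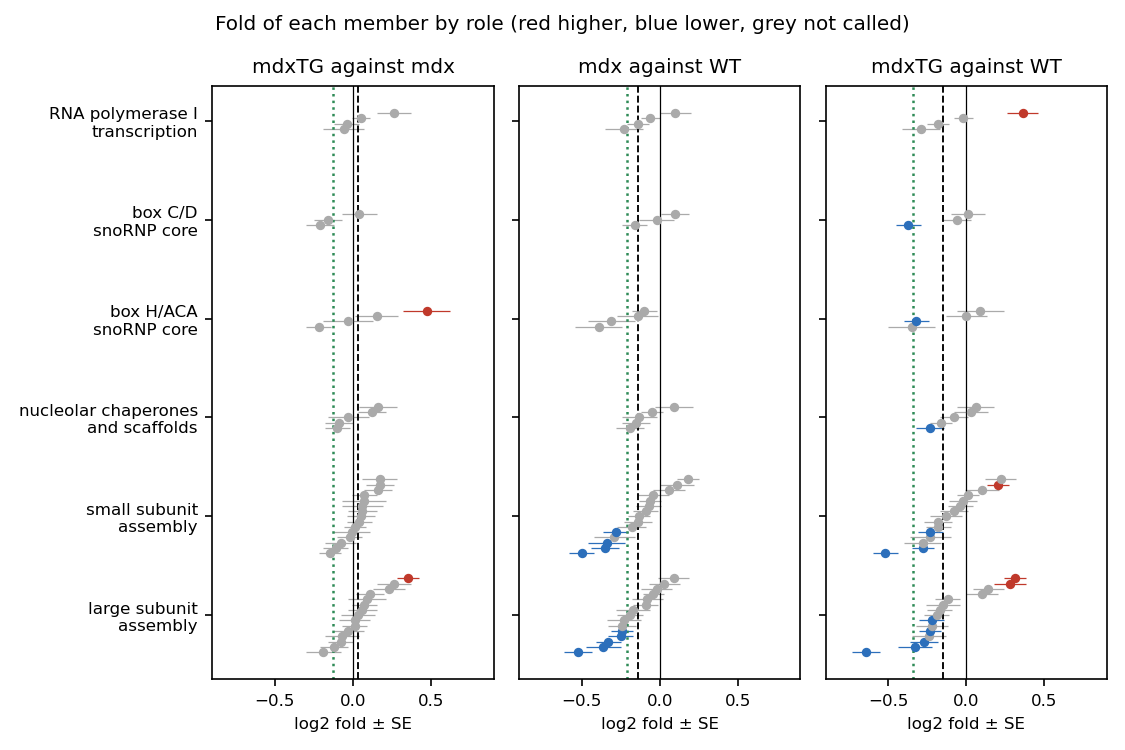
Log2 fold of each member with its SE (limma, normalized scale), by role, in mdxTG against mdx, mdx against WT and mdxTG against WT; red points passed the test as higher, blue as lower, and members are sorted by fold within each role and panel. The dashed line is the members' median (0.03, -0.14 and -0.15), and 2, 9 and 15 members are coloured. The dotted line marks the median of all genes on the normalized scale minus that on plain CPM. A member with a fold of 0 on plain CPM can lie off that line.

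Of the 4 genes of RNA polymerase I transcription, Polr1c was higher in mdxTG against WT and no other call was made. Polr1c encodes a subunit shared by RNA polymerases I and III (chr17:46243920-46248054, minus strand, mm10). Its level was 11.2, 8.91, 10.5 and 11.4 normalized CPM in mdxTG libraries, 7.79, 9.18, 9.09 and 8.68 in mdx libraries, and 8.31, 9.11, 8.86, 6.89 and 7.31 in WT libraries. mdxTG replicates 1, 3 and 4 lay above all others and mdxTG replicate 2 lay within the range of mdx and WT. The log2 fold was 0.36 ± 0.10 (SE) in mdxTG against WT, with adjusted p = 0.00873, and 0.26 ± 0.11 in mdxTG against mdx, with adjusted p = 0.0914. Polr1a and Polr1b, the large catalytic subunits of RNA polymerase I, averaged 50.1 ± 2.21 and 15.3 ± 0.766 in mdxTG, 52.5 ± 7.64 and 15.8 ± 1.28 in mdx, and 62.0 ± 10.1 and 17.5 ± 1.07 in WT. Neither passed limma's test in mdxTG against WT (adjusted p = 0.0597 and 0.0561), while edgeR (adjusted p = 0.0475 and 0.0493), DESeq2 (0.0253 and 0.0176) and limma on median-of-ratios scaling (0.0459 and 0.0335) called both lower there. Without WT replicate 2, in which Polr1a was at 45.6 against 61.2 to 72.8 in the other WT libraries, Polr1a was lower in mdxTG against WT (adjusted p = 0.00296) and in mdx against WT (0.0125), and Polr1b in mdxTG against WT (0.0272). Ubtf, which opens the rRNA genes for transcription, stayed within 46.3 and 52.6 normalized CPM over all 13 libraries.

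The box C/D core carries the methylation of rRNA, and 1 of its 3 genes passed a test. Nop56, a scaffold of the particle (chr2:130274430-130279313, plus strand), was at 23.1, 21.6, 24.7 and 22.8 normalized CPM in mdxTG libraries, 26.3, 31.5, 24.4 and 25.3 in mdx libraries, and 33.0, 30.4, 27.2, 30.6 and 28.7 in WT libraries. All mdxTG libraries lay below all WT libraries, and mdx libraries overlapped both. Its log2 fold in mdxTG against WT was -0.37 ± 0.08 (adjusted p = 0.00187), and 0.00 on plain CPM. Its partner Nop58 averaged 15.2 ± 1.12 in mdxTG, 17.0 ± 2.06 in mdx and 15.8 ± 1.13 in WT, and Fbl, the methyltransferase fibrillarin, 9.59 ± 0.416, 9.39 ± 1.37 and 9.55 ± 1.29. Neither passed in any comparison. Nop56 and Fbl share near-identical stretches with transcripts of 6 and 2 other annotated genes, for Fbl among them Tulp4. Their counts are uncertain where reads could be split.

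The box H/ACA core converts uridines of rRNA to pseudouridine and also forms part of telomerase. Nhp2 (chr11:51619735-51623714, plus strand), an RNA-binding core protein, was at 16.8, 12.3, 13.9 and 13.2 normalized CPM in mdxTG libraries, 11.0, 11.8, 8.21 and 9.11 in mdx libraries, and 14.5, 17.9, 11.3, 11.6 and 11.5 in WT libraries. Every mdxTG library lay above every mdx library, while WT libraries overlapped both, with WT replicate 2 highest. Nhp2 was higher in mdxTG against mdx, by 0.47 ± 0.15 on the log2 scale (adjusted p = 0.0331). The call was lost without any 1 of mdxTG replicates 1, 3 and 4 and mdx replicates 3 and 4, with an adjusted p between 0.0532 and 0.102. Dkc1, the pseudouridine synthase dyskerin (chrX:75095854-75109777, plus strand), was at 18.8, 16.4, 16.9 and 16.4 in mdxTG, 21.9, 21.8, 18.1 and 18.7 in mdx, and 22.1, 19.7, 23.1, 20.9 and 21.5 in WT. It was below all WT libraries in all mdxTG libraries, and its log2 fold in mdxTG against WT was -0.32 ± 0.08 (adjusted p = 0.00378), and 0.05 on plain CPM. In mdxTG against mdx Dkc1 had a log2 fold of -0.22 ± 0.08 (adjusted p = 0.0614, and 0.0431 without WT replicate 2). Nop10 averaged 24.2 ± 2.76 in mdxTG, 25.0 ± 4.74 in mdx and 31.2 ± 6.69 in WT, and Gar1 5.15 ± 0.606, 4.62 ± 0.713 and 5.17 ± 0.940, and neither passed limma's unblocked test with all libraries. DESeq2 called Nop10 lower in mdxTG against WT (adjusted p = 0.0319). It also called Nhp2 lower in mdx against WT (adjusted p = 0.0312), where limma's adjusted p was 0.0537.

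Nucleolar chaperones and scaffolds include nucleolin and nucleophosmin, and 1 of the 5 genes passed a test. Nolc1, a scaffold that carries snoRNPs, was at 29.8, 30.6, 29.8 and 31.6 normalized CPM in mdxTG libraries, 31.9, 34.5, 31.4 and 31.7 in mdx libraries, and 39.0, 28.3, 38.2, 37.8 and 37.1 in WT libraries. WT replicates 1, 3, 4 and 5 lay above all others and WT replicate 2 lay below all others. Its log2 fold in mdxTG against WT was -0.23 ± 0.09 (adjusted p = 0.0355), or -0.32 without WT replicate 2 (adjusted p = 0.000239), and 0.14 on plain CPM. The adjusted p lay between 0.0514 and 0.0780 without any 1 of mdxTG replicates 1 to 4 or WT replicates 1, 3, 4 and 5. Ncl (nucleolin) averaged 171 ± 8.12 in mdxTG, 183 ± 6.35 in mdx and 190 ± 17.5 in WT, and every mdxTG library was below every mdx library, with a log2 fold of -0.10 ± 0.08 that did not pass (adjusted p = 0.367). Gnl3 (nucleostemin, a nucleolar GTPase) averaged 24.3 ± 1.11, 22.5 ± 2.73 and 25.7 ± 2.13 in mdxTG, mdx and WT. The helicase Ddx21 averaged 58.0 ± 3.27, 52.0 ± 4.34 and 57.6 ± 9.38, and Npm1 (nucleophosmin) 103 ± 10.3, 106 ± 14.5 and 99.2 ± 15.9. None of these 4 passed in any comparison in limma with all libraries, and DESeq2 called Ncl lower in mdxTG against WT (adjusted p = 0.0290). Without WT replicate 2, Ncl was lower in mdxTG against WT (adjusted p = 0.0103), and Nolc1 and Ddx21 in mdx against WT (0.00449 and 0.015).

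Among the 15 factors of small subunit assembly, 4 were lower in mdx against WT, and in mdxTG against WT 3 were lower and 1 was higher. Rrp9, a protein of the U3 snoRNP that starts the cutting of the precursor (chr9:106475963-106485424, plus strand), was at 12.0, 11.5, 12.3 and 12.4 normalized CPM in mdxTG libraries, 13.1, 13.2, 11.6 and 10.9 in mdx libraries, and 18.5, 18.2, 17.6, 15.9 and 17.1 in WT libraries. All 8 libraries with the mdx mutation lay below all WT libraries, and mdxTG and mdx overlapped. The log2 fold was -0.52 ± 0.08 in mdxTG against WT (adjusted p = 5.84e-05), and -0.50 ± 0.08 in mdx against WT (adjusted p = 0.000197), and both comparisons use the same 5 WT libraries. On plain CPM the value was -0.15 in mdxTG against WT (adjusted p = 0.0942) and -0.27 in mdx against WT (adjusted p = 0.0107).

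Bms1, a GTPase of the small subunit precursor, was at 36.6, 32.8, 37.5 and 37.8 normalized CPM in mdxTG libraries, 39.5, 40.0, 41.3 and 40.2 in mdx libraries, and 46.6, 39.5, 43.5, 47.2 and 44.0 in WT libraries. The mdxTG libraries lay below all others, and WT replicate 2 lay level with the lowest mdx library. Its log2 fold was -0.28 ± 0.07 in mdxTG against WT (adjusted p = 0.00298; 0.09 on plain CPM). In mdxTG against mdx the value was -0.15 ± 0.07 (adjusted p = 0.13). Tsr1, a related protein of the cytoplasmic steps, was at 29.4, 29.2, 29.0 and 28.0 in mdxTG, 23.3, 28.8, 23.3 and 27.3 in mdx, and 37.7, 28.0, 32.6, 34.2 and 31.8 in WT. All mdx libraries lay below WT replicates 1, 3, 4 and 5, and the mdxTG libraries lay close together, within the upper part of the mdx range and just above it. Its log2 fold in mdx against WT was -0.35 ± 0.09 (adjusted p = 0.00777), and that in mdxTG against WT was -0.18 ± 0.09 (adjusted p = 0.111, and 0.0256 without WT replicate 2). Tsr1 shares 32.3% of its exon bases with Srr on the opposite strand, and the sources used here give no strand setting for the counting. Tsr1 also shares a near-identical stretch with transcripts of 1 other annotated gene.

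Of the other small subunit factors, Ltv1, needed for the maturation of the small subunit after export, had a log2 fold of -0.23 ± 0.08 in mdxTG against WT (adjusted p = 0.0309) and -0.28 ± 0.08 in mdx against WT (0.0190). In mdx against WT its adjusted p was 0.0660 without mdx replicate 3 and 0.0515 without mdx replicate 4, and in mdxTG against WT it was 0.0576 to 0.101 without mdxTG replicate 2 or 4 or WT replicate 1 or 4. Rrp12, an export factor, was at 40.2 to 48.2 normalized CPM in mdxTG, 38.9 to 47.2 in mdx, and 63.6, 38.5, 57.7, 56.1 and 55.1 in WT. Its log2 fold in mdx against WT was -0.34 ± 0.12 (adjusted p = 0.0419), or -0.46 without WT replicate 2 (adjusted p = 0.000636), where it was also lower in mdxTG against WT (-0.40, adjusted p = 0.000798). The mdx against WT call of Rrp12 was lost, with an adjusted p between 0.0518 and 0.103, without any 1 of mdxTG replicates 2 and 3, mdx replicates 1, 2 and 4 and WT replicates 1, 3, 4 and 5. Imp4, a partner of the U3 snoRNP, was the member of this role that was higher: it averaged 15.2 ± 1.27 in mdxTG, 15.0 ± 0.630 in mdx and 13.2 ± 0.340 in WT. Its log2 fold was 0.20 ± 0.07 in mdxTG against WT (adjusted p = 0.0286, and 0.0615 to 0.0992 without mdxTG replicate 1, 2 or 3 or WT replicate 4). All mdx libraries of Imp4 lay above all WT libraries, at a log2 fold of 0.18 ± 0.07 that did not pass (adjusted p = 0.0584). The remaining 9 factors (Imp3, Wdr43, Nop14, Heatr1, Utp14a, Utp20, Ddx10, Nat10 and Noc4l) passed in no comparison in limma with all libraries and no block. DESeq2 and limma on median-of-ratios scaling called Wdr43 lower in mdxTG against WT (adjusted p = 0.0223 and 0.0358). Without WT replicate 2, Nop14 was lower in mdx against WT (adjusted p = 0.0192), Bms1 was too (0.0393), and Utp20 and Wdr43 were lower in mdxTG against WT (0.0319 and 0.0392).

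**Figure D3:**
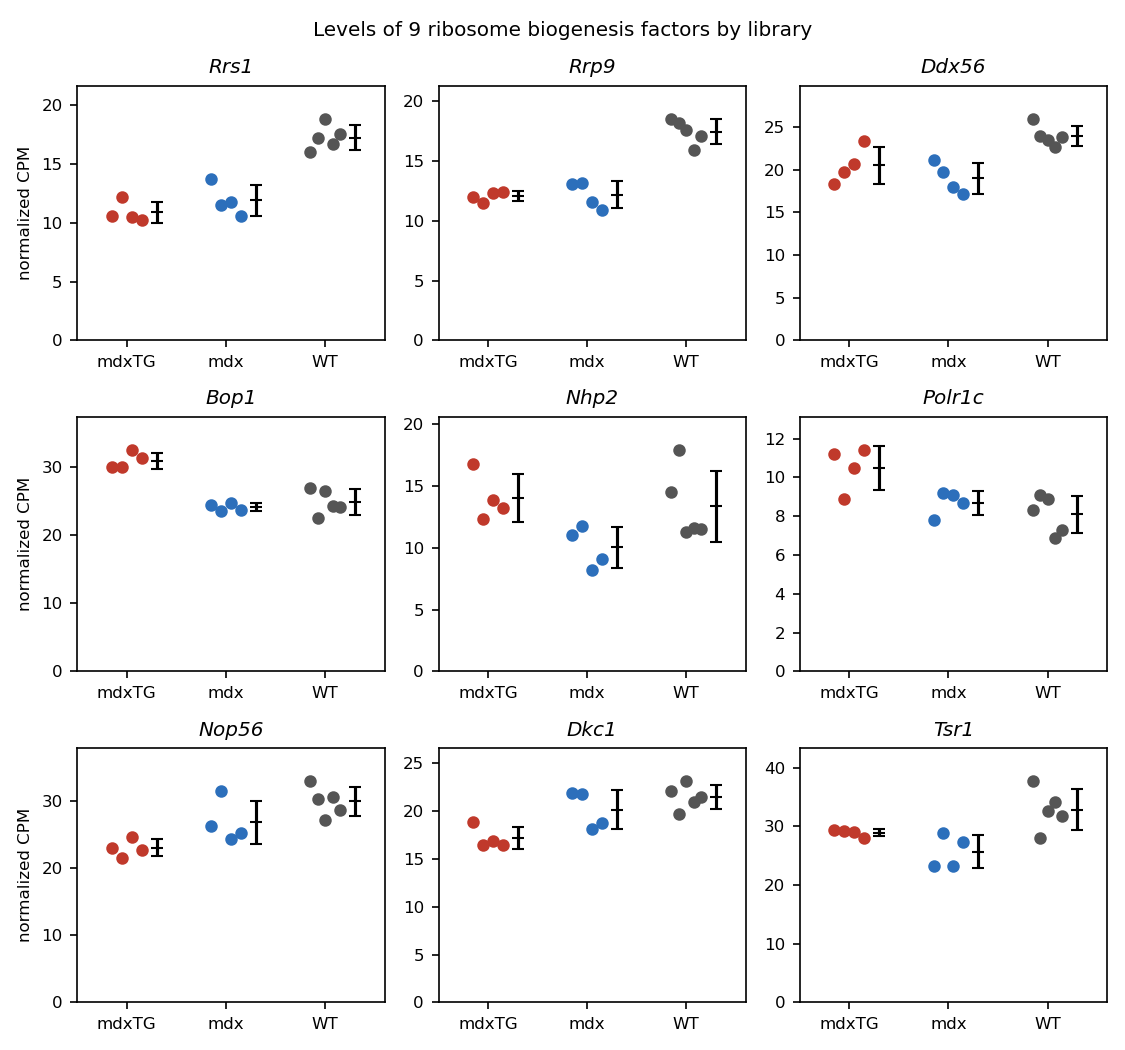
Normalized CPM of 9 members in each library (points) by genotype, with the mean and SD beside them (mdxTG and mdx, n = 4; WT, n = 5); each vertical axis starts at 0. Rrs1 and Rrp9 have all mdxTG and mdx libraries below WT, and Bop1 has all mdxTG libraries, at 30 to 32.5, above all others.

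Among the 15 factors of large subunit assembly, Bop1 was higher in mdxTG against mdx, and 5 factors were lower in mdx against WT. In mdxTG against WT, 5 were lower and 2 were higher. Rrs1, which helps to place a small ribosomal RNA particle into the large subunit precursor (chr1:9545408-9547455, plus strand), was at 10.6, 12.2, 10.5 and 10.2 normalized CPM in mdxTG libraries, 13.7, 11.5, 11.8 and 10.6 in mdx libraries, and 16.0, 17.2, 18.8, 16.7 and 17.5 in WT libraries. All mdxTG and mdx libraries lay below all WT libraries, and mdxTG and mdx overlapped. The log2 fold was -0.64 ± 0.09 in mdxTG against WT (adjusted p = 2.1e-05) and -0.52 ± 0.09 in mdx against WT (adjusted p = 0.000343). Rrs1 was also lower on plain CPM in both, with log2 folds of -0.28 and -0.29 (adjusted p = 0.0217 and 0.0267). The difference between mdxTG and mdx was -0.12 ± 0.09 (adjusted p = 0.338).

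Bop1 is a scaffold protein that works in a complex with Pes1 and Wdr12 on the large subunit precursor. It lies at chr15:76452989-76477277 on the minus strand and was at 30.1, 30, 32.5 and 31.3 normalized CPM in mdxTG libraries, 24.4, 23.5, 24.8 and 23.7 in mdx libraries, and 27.0, 22.5, 26.5, 24.3 and 24.1 in WT libraries. The mdxTG libraries lay above every mdx and WT library, and mdx lay within the WT range. The log2 fold was 0.35 ± 0.07 in mdxTG against mdx (adjusted p = 0.00173) and 0.31 ± 0.07 in mdxTG against WT (adjusted p = 0.00122), and the 2 values share the mdxTG libraries. Both calls held under all alternatives and with every library left out in turn, with an adjusted p of at most 0.00778 in mdxTG against mdx and 0.00592 in mdxTG against WT over the left-out libraries. Its partner Pes1 averaged 32.2 ± 5.31 in mdxTG, 33.7 ± 3.74 in mdx and 37.9 ± 2.68 in WT. It passed in no comparison in limma with all libraries, and was lower in mdxTG against WT without mdxTG replicate 4 (adjusted p = 0.0168). Wdr12, the third partner, averaged 19.9 ± 1.47 in mdxTG, 19.8 ± 1.45 in mdx and 23.4 ± 0.953 in WT. Its log2 fold was -0.23 ± 0.07 in mdxTG against WT (adjusted p = 0.0139; 0.0508 without mdxTG replicate 2; 0.14 on plain CPM). In mdx against WT it was -0.24 ± 0.07 (adjusted p = 0.0189; 0.0530 without mdx replicate 3 and 0.0677 without mdx replicate 4). Wdr12 and Pes1 share near-identical stretches with transcripts of 6 and 2 other annotated genes, for Wdr12 among them Ppip5k1 and Tmod3. Both members are uncertain in that respect.

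Ddx56, a helicase of the large subunit pathway, was at 18.3, 19.7, 20.7 and 23.4 normalized CPM in mdxTG libraries, 21.1, 19.7, 18 and 17.1 in mdx libraries, and 25.9, 23.9, 23.5, 22.7 and 23.8 in WT libraries. Mdx libraries lay below all WT libraries, and mdxTG replicate 4 reached into the WT range. The log2 fold was -0.33 ± 0.08 in mdx against WT (adjusted p = 0.00736), and -0.22 ± 0.08 in mdxTG against WT (adjusted p = 0.0357; 0.0533 to 0.121 without mdxTG replicate 1, 2 or 3 or WT replicate 1 or 5). Mrto4, which holds the place of a stalk protein on the large subunit, had a log2 fold of -0.33 ± 0.11 in mdxTG against WT (adjusted p = 0.0194, and 0.0605 without mdxTG replicate 2) and -0.36 ± 0.11 in mdx against WT (0.0201, and 0.0640 or 0.0748 without mdx replicate 3 or 4). Mrto4 shares near-identical stretches with transcripts of 2 other annotated genes and is uncertain in that respect. Noc2l was lower in mdx against WT, with a log2 fold of -0.25 ± 0.08 (adjusted p = 0.0285, and 0.0544 to 0.0861 without mdx replicate 2, 3 or 4 or WT replicate 1), and 20.9% of its exon bases are shared with Samd11 on the opposite strand. Nop2, an rRNA methyltransferase, had a log2 fold of -0.27 ± 0.09 in mdxTG against WT (adjusted p = 0.0213, and 0.0528 to 0.0700 without mdxTG replicate 2 or 4 or WT replicate 4). In mdx against WT it was -0.24 ± 0.09 (adjusted p = 0.0547), and it passed without WT replicate 2 (adjusted p = 0.00891).

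Nip7, a factor of large subunit maturation, was higher in mdxTG against WT. Its levels were 13.9, 12.1, 12.2 and 11.4 normalized CPM in mdxTG libraries, 10.8, 12.2, 8.71 and 9.61 in mdx libraries, and 11.5, 10.3, 9.52, 8.82 and 10.3 in WT libraries. The mdxTG libraries overlapped WT at 1 library, WT replicate 1, which lay just above mdxTG replicate 4. The log2 fold was 0.28 ± 0.10 in mdxTG against WT (adjusted p = 0.0328), and 0.055 to 0.104 was the range of the adjusted p without mdxTG replicate 1, 2 or 3 or WT replicate 3 or 4. In mdxTG against mdx it was 0.26 ± 0.11 (adjusted p = 0.0985). Noc3l, a partner of Noc2l, had every mdxTG library, at 11.3 to 13, above every mdx library, at 10.2 to 10.9, and a log2 fold of 0.23 ± 0.10 that did not pass (adjusted p = 0.123, and 0.0422 without WT replicate 2). The remaining 6 large subunit factors (Ddx18, Pes1, Ebna1bp2, Rrp15, Nop16 and Rrp1b) and Noc3l passed in no comparison in limma with all libraries and no block. DESeq2 called Ddx18 lower in mdx against WT (adjusted p = 0.0377) and Ebna1bp2 lower in mdxTG against WT (0.0246). Limma on median-of-ratios scaling called Pes1 and Ebna1bp2 lower in mdxTG against WT (adjusted p = 0.0473 and 0.0429). Without WT replicate 2, the helicase Ddx18 was lower in mdxTG against WT (adjusted p = 0.0379) and in mdx against WT (0.0106).

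Groups that did not overlap were counted over the 46 members without a test. In mdxTG against mdx, 3 members had all mdxTG libraries above all mdx libraries (Bop1, Nhp2 and Noc3l) and 2 had them all below (Ncl and Bms1), against 18.1% and 15.0% of all genes. In mdx against WT the counts were 1 and 5, against 15.0% and 11.7%. In mdxTG against WT they were 2 and 8, against 23.7% and 19.5%. In limma, 27 of the 46 members (58.7%) were called in none of the 3 comparisons, as were 37.4% of all genes tested. DESeq2 called 7 of those 27 in a comparison. The same count over all genes was not made, so the 7 have no background beside them. None of the 46 is in the authors' deposited tables of changed genes, which hold 748 genes for mdxTG against mdx, 1073 for mdx against WT and 1857 for mdxTG against WT, with log2 changes of at least 1.

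WT replicate 2 differed from the other WT libraries in step with gene length. Over the 46 members, the deviation of its log2 level from the mean of the other 4 WT libraries had a Spearman correlation of -0.83 with coding length, and -0.50 over 12715 genes. These are correlations across genes within 1 library, given as a description. All 10 members with a coding length over 2500 bases, such as Polr1a, Heatr1 and Rrp12, were lower in WT replicate 2 than in every other WT library. Of the 12 members under 1000 bases, such as Nop10, Nhp2 and Imp3, 9 were higher than in every other WT library. The limits of 1000 and 2500 bases were chosen after these values were seen. Smaller values of either sign were found for other libraries, each set against the mean of the other libraries of its genotype. Opposite signs within a genotype are partly built into that measure. For the other WT libraries the mean includes WT replicate 2, so their values are not separate from its deviation. Over the members, rho lay between -0.60 and 0.61 in mdxTG, between -0.63 and 0.71 in mdx and between 0.40 and 0.64 in the other WT libraries. Over 12715 genes it lay between -0.32 and 0.30 in mdxTG, -0.43 and 0.44 in mdx, and -0.10 and 0.40 in the other WT libraries. The log2 folds of the members had rho of -0.04 with coding length in mdxTG against mdx, 0.11 in mdx against WT and 0.03 in mdxTG against WT, and -0.04, -0.17 and -0.19 without WT replicate 2.

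**Figure D4:**
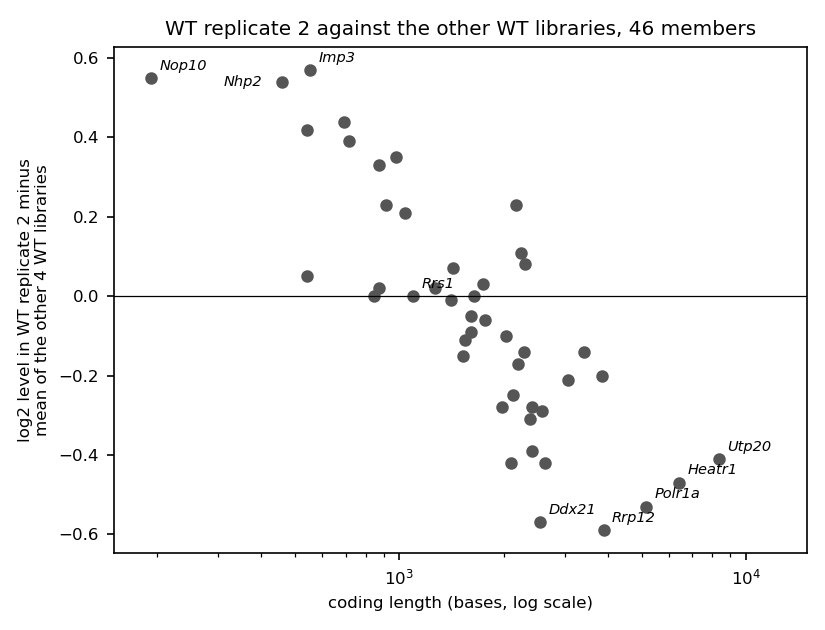
Deviation of WT replicate 2 from the mean of the other 4 WT libraries (vertical axis, log2(normalized CPM + 0.5)) against coding length in bases (horizontal, log scale) for the 46 members, with 9 genes named. Short members such as Nop10 lie above 0 and long members such as Utp20 lie below it.

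Other genes of the pathway, 117 measured of a list of 119 (Riok2 and Wdr74 not analysed here), were tested alongside. In mdxTG against mdx, 13 were higher and 2 lower (35 and 0 on plain CPM). In mdx against WT, 1 was higher and 17 lower (23 and 1 on plain CPM), and in mdxTG against WT 17 were higher and 21 lower (76 and 2 on plain CPM). The shares of all genes called higher and lower are those given above for the same comparisons. Without WT replicate 2, 17 were higher and 4 lower in mdxTG against mdx, 26 were lower in mdx against WT, and 26 were lower in mdxTG against WT. Without mdx replicate 4, 10 were lower in mdx against WT. Their median log2 folds were 0.05, -0.10 and -0.06, and on plain CPM 0.19, 0.12 and 0.30. By role, 6 of 45 large subunit factors and 6 of 39 small subunit factors were higher in mdxTG against mdx. In that comparison 11.1% of the whole list was higher, below the 15.4% of all genes. Ddx54, a helicase, averaged 41.3 ± 2.03 normalized CPM in mdxTG, 26.3 ± 1.18 in mdx and 28.4 ± 1.88 in WT, with a log2 fold of 0.64 ± 0.07 in mdxTG against mdx (adjusted p = 1.18e-05). Sbds, which releases the anti-association factor Eif6 from the large subunit, averaged 30.7 ± 1.57 in mdxTG, 20.6 ± 1.38 in mdx and 23.2 ± 1.16 in WT, at 0.57 ± 0.07 in mdxTG against mdx (adjusted p = 4.38e-05). Eif6 itself had a log2 fold of 0.40 ± 0.10 in mdxTG against mdx (adjusted p = 0.00893) and is named for its link to Sbds, after its values were seen. Heatr3 averaged 33.7 ± 1.42, 39.2 ± 2.29 and 47.8 ± 4.50 in mdxTG, mdx and WT, and its log2 fold in mdxTG against WT was -0.49 ± 0.08 (adjusted p = 0.000103; -0.12 on plain CPM, adjusted p = 0.224).

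In the small subunit list, Rrp7a averaged 31.3 ± 0.868 normalized CPM in mdxTG, 22.2 ± 1.35 in mdx and 25.1 ± 1.53 in WT, a log2 fold of 0.49 ± 0.07 in mdxTG against mdx (adjusted p = 0.000133). Bysl was at 24.4 ± 1.33, 19.4 ± 0.673 and 23.3 ± 0.661 in mdxTG, mdx and WT, with a log2 fold of 0.32 ± 0.06 in mdxTG against mdx (adjusted p = 0.00184) and -0.26 ± 0.06 in mdx against WT (adjusted p = 0.00503). Rcl1, an endonuclease-like factor, was at 5.45 ± 0.394, 6.86 ± 0.451 and 9.63 ± 1.54, with a log2 fold of -0.76 ± 0.11 in mdxTG against WT (adjusted p = 5.55e-05). Among genes of RNA polymerase I transcription, Rrn3, the factor that recruits the polymerase to the promoter, averaged 40.3 ± 1.62 in mdxTG, 41.4 ± 0.486 in mdx and 52.0 ± 3.58 in WT. Its log2 fold was -0.36 ± 0.06 in mdxTG against WT (adjusted p = 0.000289; 0.01 on plain CPM) and -0.32 ± 0.06 in mdx against WT (adjusted p = 0.00142; -0.09 on plain CPM). Taf1a and Taf1c, subunits of the promoter selectivity factor, had log2 folds of -0.59 ± 0.09 and -0.30 ± 0.09 in mdxTG against WT (adjusted p = 8.84e-05 and 0.0137; -0.23 and 0.06 on plain CPM). In mdx against WT they were -0.35 ± 0.09 and -0.50 ± 0.09 (adjusted p = 0.00814 and 0.000842).

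Among 9 genes of snoRNP assembly, the smallest p-values were those of Ruvbl2, Znhit3 and Nufip1. Ruvbl2, an ATPase of the assembly complex, averaged 17.8 ± 1.10 normalized CPM in mdxTG, 19.6 ± 1.65 in mdx and 23.2 ± 1.44 in WT, and its log2 fold in mdxTG against WT was -0.37 ± 0.08 (adjusted p = 0.000903; -0.01 on plain CPM). Znhit3 had a log2 fold of -0.66 ± 0.15 in mdxTG against WT (adjusted p = 0.00182; -0.31 on plain CPM) and Nufip1 one of -0.25 ± 0.08 in mdx against WT (adjusted p = 0.0270; 0.0552 to 0.0937 without mdx replicate 1 or 4 or WT replicate 3 or 5; -0.03 on plain CPM). Of 13 subunits and cofactors of the RNA exosome, which trims rRNA ends, none passed in mdxTG against mdx or in mdx against WT with limma, edgeR or DESeq2, where 0 and 2 had an unadjusted p under 0.05 in limma. Exosc10 and Exosc5 were lower in mdxTG against WT (-0.28 ± 0.08 and -0.33 ± 0.11, adjusted p = 0.00985 and 0.0196; 0.09 and 0.04 on plain CPM; Exosc5 0.0596 without mdxTG replicate 3). Exosc7 had a log2 fold of -0.20 ± 0.09 there (adjusted p = 0.0738).

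Myc, the activator named above, was at 7.31, 11.4, 7.56 and 10.9 normalized CPM in mdxTG libraries, 5.00, 7.71, 6.66 and 6.58 in mdx libraries, and 4.56, 5.07, 6.29, 5.09 and 6.17 in WT libraries. All mdxTG libraries lay above all WT libraries, while mdx overlapped both. Its log2 fold was 0.71 ± 0.15 in mdxTG against WT (adjusted p = 0.00144), 0.48 ± 0.16 in mdxTG against mdx (adjusted p = 0.0400), and 0.23 ± 0.15 in mdx against WT (adjusted p = 0.273). The call in mdxTG against mdx was lost, with an adjusted p between 0.0505 and 0.13, without any 1 of mdxTG replicates 2 and 4, mdx replicates 1, 3 and 4 and WT replicate 4. Max, the partner with which Myc binds DNA, averaged 21.7 ± 1.78 in mdxTG, 27.9 ± 1.92 in mdx and 24.9 ± 2.87 in WT, with a log2 fold of -0.35 ± 0.09 in mdxTG against mdx (adjusted p = 0.0120; -0.21 on plain CPM, adjusted p = 0.115). Of the proteins that compete with Myc for Max, Mxi1 was lower in mdxTG against WT (-0.53 ± 0.07, adjusted p = 2.36e-05) and in mdx against WT (-0.43 ± 0.07, adjusted p = 0.000319), at -0.15 and -0.20 on plain CPM (adjusted p = 0.0524 and 0.0221). Mnt was lower in both as well (-0.37 ± 0.11 and -0.44 ± 0.11, adjusted p = 0.0124 and 0.00686), at 0.00 and -0.22 on plain CPM, and the first of these had an adjusted p of 0.0510 without mdxTG replicate 3. Mxd4 was higher in both (0.41 ± 0.09 and 0.30 ± 0.09, adjusted p = 0.00155 and 0.0192), and in mdx against WT its adjusted p was 0.0536 and 0.0715 without mdx replicate 3 and 4. Mga, a larger Max partner, was lower in mdxTG against WT (-0.37 ± 0.12, adjusted p = 0.0192; 0.0617 without mdxTG replicate 1; 0.01 on plain CPM). Mycl, at 0.804 ± 0.182, 1.68 ± 0.803 and 0.653 ± 0.112 in mdxTG, mdx and WT, was lower in mdxTG against mdx (-0.67 ± 0.22, adjusted p = 0.0352, and 0.0606 to 0.112 without mdxTG replicate 1, 2 or 4 or mdx replicate 3 or 4) and higher in mdx against WT (0.84 ± 0.21, adjusted p = 0.00652). Mycn and Mxd3 were not analysed here. Of the 7 members with the CACGTG letters printed above, Imp4 was higher in a comparison, Nop2, Ltv1 and Tsr1 were lower in a comparison, and Utp20, Pes1 and Wdr43 were called in none. CCGGAAG was present in 3 of the 4 members with a promoter that were higher in a comparison, 6 of 12 that were lower and 6 of 25 never called.

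Proteins of the finished cytosolic ribosome, 78 measured of 79 listed (Rpl24 not analysed here), passed the test in few cases. None passed in mdxTG against mdx with limma, edgeR or DESeq2, where 4 had an unadjusted p under 0.05 in limma, 1 was higher in mdx against WT and 2 were higher in mdxTG against WT, with medians of 0.13, -0.10 and 0.04 on the log2 scale. In limma the higher shares were 0.0%, 1.28% and 2.56% of the list, against 15.4%, 18.5% and 28.7% of all genes. On plain CPM 8, 2 and 58 were higher in the 3 comparisons and none was lower. Those are 10.3%, 2.56% and 74.4% of the list, against 25.3%, 37.2% and 57.2% of all genes. Without WT replicate 2, 4 were higher in mdxTG against mdx, 1 in mdx against WT and 11 in mdxTG against WT, and the medians were 0.13, 0.04 and 0.17, so that the sign of the mdx against WT median depends on that library. The higher share of all genes was not counted without that library. In mdxTG against mdx 1 was higher without mdx replicate 2, and the mdxTG against WT median was -0.02 without WT replicate 5. With the replicate numbers as a block in the mdx and WT libraries, a pairing taken from these data, 20 were lower in mdx against WT. That is 25.6% of the list, against 18.8% of all genes, and is a description only. Rpl3 averaged 97.4 ± 1.77 normalized CPM in mdxTG, 85.3 ± 10.5 in mdx and 51.7 ± 7.93 in WT. Its log2 fold was 0.92 ± 0.11 in mdxTG against WT (adjusted p = 6.19e-06) and 0.72 ± 0.11 in mdx against WT (adjusted p = 0.000162). Rpl13a was higher in mdxTG against WT by 0.52 ± 0.13 (adjusted p = 0.00423). The small subunit proteins with the smallest p-values were Rps2 and Rps20, with log2 folds of 0.28 ± 0.12 and 0.51 ± 0.22 in mdxTG against mdx (adjusted p = 0.106 and 0.101). Many ribosomal protein genes have processed copies, and their counts are uncertain in the same way.

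Levels of marker genes of cell types also differed between the genotypes, and cells were not counted. The shares of all genes called higher and lower are those given above for the same comparisons. Of 10 marker genes of proliferating cells, 10 were higher in mdx against WT, and 9 were lower in mdxTG against mdx, with summed levels of 14.4 to 19.3 normalized CPM in mdxTG, 25.8 to 48.0 in mdx and 2.75 to 8.34 in WT. Of 10 markers of satellite cells and new fibres, 9 were higher in mdx against WT, and in mdxTG against mdx 6 were lower and 1 higher, with sums of 150 to 185 in mdxTG, 206 to 529 in mdx and 50.2 to 119 in WT. Of 10 macrophage markers, 8 were higher in mdx against WT and 8 in mdxTG against WT, with sums of 549 to 749 in mdxTG, 570 to 1050 in mdx and 108 to 329 in WT. Of 10 muscle fibre genes, 3 were lower in mdxTG against mdx (6 without WT replicate 2), 4 in mdx against WT and 8 in mdxTG against WT. Of 8 markers of fibro-adipogenic progenitors, 2 were higher in mdxTG against mdx and 2 in mdx against WT, and in mdxTG against WT 7 were higher and 1 lower, with sums of 3480 to 5210 in mdxTG, 2370 to 3980 in mdx and 1070 to 2650 in WT. Of 7 Schwann cell markers, 7 were lower in mdx against WT, with sums of 131 to 183 in mdxTG, 95.1 to 121 in mdx and 153 to 394 in WT. None of these markers was at 0 in every library of a genotype, and their part in the levels of the ribosome biogenesis factors was not tested.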

How the data were processed

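Messenger RNA of 13 tibialis anterior samples was sequenced (TRIzol and RNeasy extraction and a stranded mRNA kit, per the labels' protocols). Reads were handled with bcl2fastq 2.17, STAR and edgeR on mm10, per the submitters' processing notes; the read counter, strand setting and annotation are not named there. The authors deposited a signal per gene, normalized CPM, which is gene reads divided by an effective library size; the factors equal edgeR's TMM factors. They also deposited total read counts, a fraction of uniquely mapped reads, and tables of log2 fold changes with p-values for genes past their limits. Whole reads were recovered from the signal for 100.0% of values within 0.001 reads, and 1 read was worth 0.0168 to 0.0273 CPM.

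Here limma 3.58.1 (R 4.3.3) with an intensity trend was fitted to log2(normalized CPM + 0.5) of all 13 libraries, for 13831 of 13846 genes that reached 0.5 CPM in 4 libraries. Tests were two-sided, with Benjamini-Hochberg adjustment over the whole table and a threshold of 0.05. Groups were taken from the labels. Alternatives were edgeR 4.0.16 and DESeq2 1.42.0 on recovered reads, plain CPM, median-of-ratios scaling, other pseudocounts and filters, 2-group fits, a replicate block and each library left out; the fitting code was checked on simulated data. Deviations of same-numbered mdx and WT libraries correlated at 0.34, 0.45, 0.33 and 0.18, so those numbers were taken as pairs from the data (the labels give the numbers only). Among WT replicates 1 to 4, mdx replicate 4 correlated best with WT replicate 3. Coordinates and coding lengths are GENCODE M21 (mm10), promoters RefSeq GRCm38.p6. Near-identical stretches were matches to transcripts of genes elsewhere, with at least 95% identity over at least 200 bases. A match need not be a copy of the whole gene. The 10 members that have such stretches are Nop56, Fbl, Npm1, Ddx21, Imp3, Tsr1, Pes1, Wdr12, Ddx18 and Mrto4. Exons of 17 members overlap another gene. The genes named were the 3 of each role with the smallest p over the 3 groups, any called, and those needed for an account of all 46. The members and lists were chosen with earlier results of these data known.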

Additional observations from a re-analysis of the deposited data

Results flagged for a closer look

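A gap test for a single library apart from the rest of its genotype was run on 141 groups of values, each member and the summed level in each genotype. It marked 11, and chance marks about 1 in 20. In WT replicate 2, Nolc1 was at 28.3 normalized CPM (37.1 to 39.0 in the other WT libraries), Ddx21 at 41.4 (57.4 to 63.9), Utp20 at 18.5 (23.8 to 25.8) and Heatr1 at 12.5 (17.2 to 17.8), all below the rest. In mdx replicate 2, Nolc1 was at 34.5 (31.4 to 31.9 in the other mdx libraries) and Gnl3 at 26.6 (21.1 in each of the others), and the summed level of the 46 members was 1320 (1190 to 1210). In WT replicate 1, Nop58 was at 17.8 (15.0 to 15.5 in the other WT libraries) and Pes1 at 42.5 (35.9 to 37.4). Noc4l was at 18.2 in WT replicate 4 (15.1 to 15.8 in the others). Noc2l was at 29.5 in mdxTG replicate 2 (35.8 to 36.3 in the other mdxTG libraries).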

How the results depend on the processing

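Over 26 calls of single members and their alternatives, 535 of 624 values kept direction and side of the threshold, 80 fell short of it and 9 changed sign. All 9 were on plain CPM in mdxTG against WT, with log2 folds of 0.00 for Nop56, 0.05 for Dkc1, 0.14 for Nolc1, 0.09 for Bms1, 0.14 for Ltv1, 0.14 for Wdr12, 0.10 for Nop2, 0.14 for Ddx56 and 0.04 for Mrto4. Plain CPM gave 9 higher members in mdxTG against mdx, 7 higher and 2 lower in mdx against WT, and 25 higher and 1 lower in mdxTG against WT, with medians of 0.17, 0.09 and 0.22; this scale moves all genes by the shift given above. Median-of-ratios scaling gave 1 lower member in mdxTG against mdx (14.1% of all genes) and 18 in mdxTG against WT (39.1% of the members, 26.8% of all genes). DESeq2 gave 2 lower in mdxTG against mdx, and 1 higher and 12 lower in mdx against WT, where edgeR gave 10 lower. In mdxTG against WT DESeq2 gave 19 lower (41.3% of the members, 28.3% of all genes). The cause was not tested. With 1 library left out, members higher and lower ranged over 1 to 3 and 0 to 1 in mdxTG against mdx, 0 to 1 and 4 to 16 in mdx against WT, and 2 to 4 and 5 to 19 in mdxTG against WT. Same-numbered libraries correlated at 0.41, -0.36, -0.19 and 0.32 in mdxTG against mdx and at 0.24, -0.47, -0.17 and 0.10 in mdxTG against WT, so those numbers do not pair samples; a replicate block there with 2 groups gave 2 higher and 6 lower in mdxTG against WT. The block in mdx against WT changed no calls of members beyond those given in the report. The other pseudocounts and filters ended no call. The fewest reads of a member in a library were 157.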
